A study of Homo sapiens with 12 samples.

Results

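The genes described are 32 glycolysis and hypoxia-response genes, followed in BON-1, a long-established cell line from a human neuroendocrine tumour of the pancreas. They were taken by symbol from a table of 54261 genes: 17 glycolytic enzymes, 3 glucose or lactate transporters, 2 pyruvate dehydrogenase kinases, 4 hypoxia factors or oxygen sensors and 6 targets of the hypoxia factors. All 32 symbols were found, and all 32 passed the filter on low values (1 FPKM or more in 3 or more libraries), as did 13312 genes in all. Poly(A) RNA was sequenced in 12 libraries, 3 from each of 4 groups: BON-1 cells alone, and BON-1 cells sorted by flow cytometry after growth with CAFs (commonly short for cancer-associated fibroblasts), mixed 10:2, 10:4 or 10:6, BON-1 first. All groups share the BON-1 line, and neither the origin of the CAFs nor the culture time or oxygen is given in the sources used here. The labels do not say that the libraries came from separate cultures, so the p-values measure a spread between libraries that may be technical. Nor is it stated that the BON-1 alone samples went through the sorter, so sorting and co-culture cannot be told apart in comparisons with BON-1 alone.

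Reads assigned to genes numbered 11703624 to 21882537 per library, and levels are in FPKM, fragments scaled to gene length in kilobases and to the assigned reads of the library, with n = 3 in each group. The neuroendocrine and epithelial markers CHGA, CHGB, SCG2, SYP, INSM1, EPCAM, KRT8 and KRT18 were present in every library. They ranged from 52.0 FPKM for SYP to 2294 FPKM for KRT8, whereas TPH1 stayed at or below 0.251 FPKM. Single markers moved both ways between BON-1 alone and 10:6. Mean CHGA was 1347 and 975 FPKM, SCG2 747 and 1401, and CHGB 219 and 274. Summed over all 9, FPKM was 6643 to 6691 in BON-1 alone and 6675 to 6963 at 10:6. Summed FPKM over 22 fibroblast markers was 165.6 to 170.9 in BON-1 alone, 206 to 209 at 10:2, 304 to 312 at 10:4 and 396 to 402 at 10:6. None of the 22 was at 0 in every library of a group, and 17 of 18 tested were called higher at 10:6 than in BON-1 alone. Of 7 leukocyte and endothelial markers, CDH5, the endothelial cadherin, had 25.3 to 29.5 FPKM, and the others stayed at or below 0.616 FPKM, with the T-cell marker CD3E at 0 in all libraries. Their sum was 28.9 to 29.8 FPKM in BON-1 alone, 27.5 to 29.7 at 10:2, 27.7 to 29.1 at 10:4 and 25.6 to 27.6 at 10:6. In sorted bulk samples of this kind, a larger share of another cell type and more RNA of a gene per BON-1 cell cannot be told apart, and the part of fibroblast RNA in the results below was not tested.

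Glycolysis splits glucose into pyruvate in the cytosol and yields ATP without oxygen. Glucose enters through carriers such as SLC2A1, lactate dehydrogenase turns pyruvate into lactate, and proton-linked carriers such as SLC16A1 and SLC16A3 move lactate across the cell membrane. Hypoxia-inducible factors pair an oxygen-regulated subunit, HIF1A or EPAS1, with a constant partner. In oxygen, the prolyl hydroxylases of the EGLN family mark these subunits for destruction, so that HIF activity is set largely at the level of protein, which RNA sequencing does not measure. Many glycolytic genes carry hypoxia response elements.

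The hypoxia factors bind a short core, and the letters ACGTG, which on the other strand appear as CACGT, were searched on both strands in the 250 bases before each annotated start in RefSeq, build GRCh38.p14. At least 1 such window held the motif in 18 of the 29 member genes with a window (62.1%), against 21.7% of 27305 genes. It was present in 11 of 17 enzymes and in 4 of 8 hypoxia factors, sensors and targets with a window. BNIP3L, NDRG1 and SLC16A1 had no window in the table used. Counted by window, 21 of 55 member windows (38.2%) and 18.5% of 35116 windows held it. Members had more windows per gene than the wider set, which was not limited to genes expressed in BON-1. A match describes letters only and is not a binding site, and no other form of the core was searched. The windows below are shown because all 5 hold the motif, while their genes differed in how their RNA changed. All 5 lie on the plus strand and are read 5′ to 3′ up to the base before the start, with each run of the motif in capitals. A capital run of 6 letters holds the motif on both strands.
GAPDH, chr12:6535014-6535263: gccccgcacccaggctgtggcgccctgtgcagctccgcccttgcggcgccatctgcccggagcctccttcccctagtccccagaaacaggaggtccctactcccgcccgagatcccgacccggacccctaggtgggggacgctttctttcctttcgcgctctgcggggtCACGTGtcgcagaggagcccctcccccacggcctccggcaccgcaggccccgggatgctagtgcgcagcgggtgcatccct
PGK1, chrX:78103998-78104247: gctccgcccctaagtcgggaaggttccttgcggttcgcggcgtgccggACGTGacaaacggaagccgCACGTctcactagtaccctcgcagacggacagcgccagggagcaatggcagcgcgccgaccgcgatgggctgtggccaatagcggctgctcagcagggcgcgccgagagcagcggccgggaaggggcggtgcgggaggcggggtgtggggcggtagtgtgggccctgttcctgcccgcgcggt
LDHA, chr11:18394313-18394562: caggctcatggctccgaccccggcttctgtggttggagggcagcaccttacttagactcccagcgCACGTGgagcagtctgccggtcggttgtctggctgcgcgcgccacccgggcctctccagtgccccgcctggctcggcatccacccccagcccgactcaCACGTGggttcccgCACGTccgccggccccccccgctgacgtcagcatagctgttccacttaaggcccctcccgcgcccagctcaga
CA9, chr9:35673678-35673927: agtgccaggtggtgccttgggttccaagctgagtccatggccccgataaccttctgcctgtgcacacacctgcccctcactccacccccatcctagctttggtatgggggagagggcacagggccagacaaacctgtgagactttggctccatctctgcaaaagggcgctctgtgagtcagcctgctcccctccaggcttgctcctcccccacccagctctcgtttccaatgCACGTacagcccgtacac
ANKRD37, chr4:185396591-185396840: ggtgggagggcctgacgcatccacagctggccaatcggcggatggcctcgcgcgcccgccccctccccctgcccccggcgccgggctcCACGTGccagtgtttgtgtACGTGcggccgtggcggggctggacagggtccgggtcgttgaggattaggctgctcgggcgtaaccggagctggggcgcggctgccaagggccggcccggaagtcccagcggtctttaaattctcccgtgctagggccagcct
The GAPDH window held 1 run, from 81 to 76 bases before the start, and the CA9 window 1 run close to the start. PGK1 and ANKRD37 held 2 runs each and LDHA 3. Against BON-1 alone, GAPDH fell at 10:6 and LDHA rose, while PGK1, CA9 and ANKRD37 did not pass the test, with the values given below. These outcomes depend on the fit. With trends on GC content and gene length removed, as described below, GAPDH was not called at 10:6, LDHA and PGK1 were called lower and CA9 higher.

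Across the 17 enzymes most changes were small falls, whereas the clearest rise among the 32 genes was in HIF1A. Differences are in log2(FPKM + 1), tested with limma over all 13312 genes with Benjamini-Hochberg adjustment at a threshold of 0.05. At 10:6 against BON-1 alone, 11 enzymes fell and 2 rose, and the median difference of the 17 was -0.19, against 0.02 over all genes tested. At 10:4, 14 enzymes fell and 1 rose, with a median of -0.15 against -0.01 over all genes. At 10:2, 8 enzymes fell, with a median of -0.09 against 0.00. Among the 10 hypoxia factors, sensors and targets, 3 rose and 1 fell at 10:6, 3 rose at 10:4, and 2 rose and 1 fell at 10:2. Of all genes, 29.7% were called higher and 18.3% lower at 10:6, 27.3% and 18.1% at 10:4, and 19.9% and 7.46% at 10:2. The rises among these 10 thus lay near the share of all genes. The medians of the 10 were 0.08, 0.01 and -0.03 at 10:6, 10:4 and 10:2.

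Over all 32 members, 8 were called higher and 13 lower at 10:6 against BON-1 alone, where 29.7% of all genes tested were called higher and 18.3% lower. At 10:4 the counts were 7 higher and 15 lower (27.3% and 18.1% of all genes), and at 10:2 they were 3 higher and 9 lower (19.9% and 7.46% of all genes). The share called higher among the members lay below that of all genes in each of these comparisons, and the share called lower lay above it. These 3 comparisons share the BON-1 alone libraries. Rescaling by median of ratios gave 5 members higher and 18 lower at 10:6, with 3544 genes higher and 3595 lower over the whole table, against 3953 and 2441 with the deposited scaling.

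**Figure D1:**
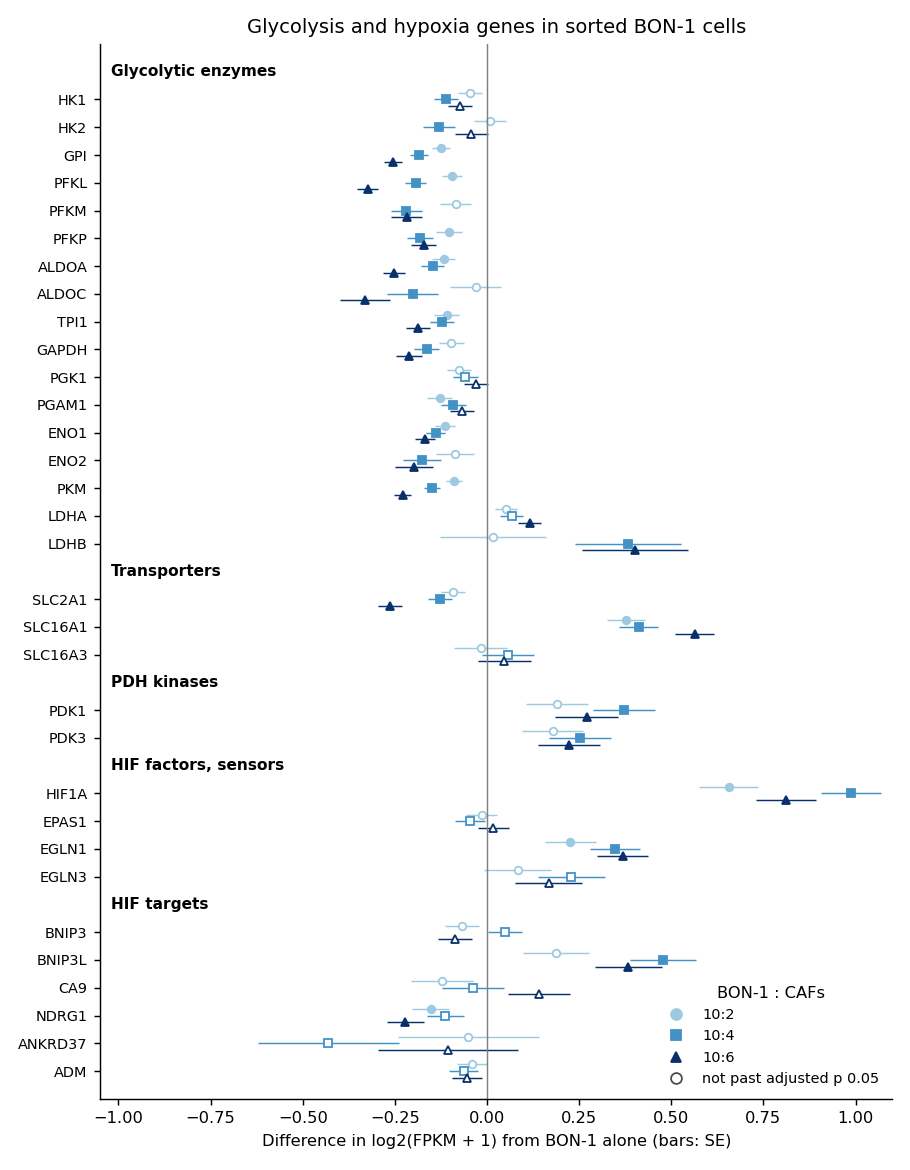
Difference in log2(FPKM + 1) between each co-culture and BON-1 alone for the 32 genes, ordered by role, with SE as bars. Filled symbols passed the limma test at an adjusted p of 0.05. Most enzymes lie left of 0, and HIF1A lies farthest to the right at all 3 ratios.

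Differences between co-culture and BON-1 alone followed the base composition of genes, and this touches every count above. Across 12398 genes with a known GC content of the longest transcript, the rank correlation (Spearman's rho) of GC content with the log2 difference was -0.68 at 10:2, -0.72 at 10:4 and -0.72 at 10:6, so GC-poor genes were relatively higher in co-culture. Over the 32 members rho was -0.63, -0.54 and -0.62. These are descriptions across genes, which share libraries and are not independent. The enzymes had a median GC content of 53.1% (from 43.3% in PGK1 to 64.1% in PFKL), all genes tested 49.8%, and HIF1A 36.4%. The test was therefore repeated after removing, in each library, the trends of the log2 values on GC content and gene length. Members called then numbered 3 higher and 11 lower at 10:6 (11.5% and 14.0% of all genes), 1 higher and 6 lower at 10:4 (10.6% and 12.5%), and 2 higher and 3 lower at 10:2 (6.07% and 5.59%). Enzymes called lower were 9 at 10:6, 5 at 10:4 and 3 at 10:2, and the medians of the 17 were -0.10, -0.06 and -0.03. Those at 10:6 were GPI, PFKL, PFKM, ALDOA, ALDOC, PGK1, ENO1, PKM and LDHA. Before removal, PGK1 was not called at 10:6 and LDHA was called higher. PFKP, TPI1, GAPDH and ENO2 lost their calls at 10:6. Enzymes called lower at 10:4 were HK2, GPI, PFKM, PGK1 and LDHA, and those at 10:2 were GPI, PGK1 and LDHA. PGK1 and LDHA were not called at these ratios before removal, and the other enzyme calls there were lost. After removal, rho over the 17 enzymes was 0.68 at 10:2, 0.29 at 10:4 and 0.02 at 10:6, against -0.45, -0.61 and -0.71 before. Over the 32 members it was 0.34, 0.04 and -0.01. Enzymes with less GC, such as PGK1 (43.3%) and LDHA (44.0%), were thus relatively lower at 10:2 in this fit. How well the trend over all genes describes the enzymes was not tested. Whether the GC trend arose in the cells or in library preparation was not tested either.

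**Figure D2:**
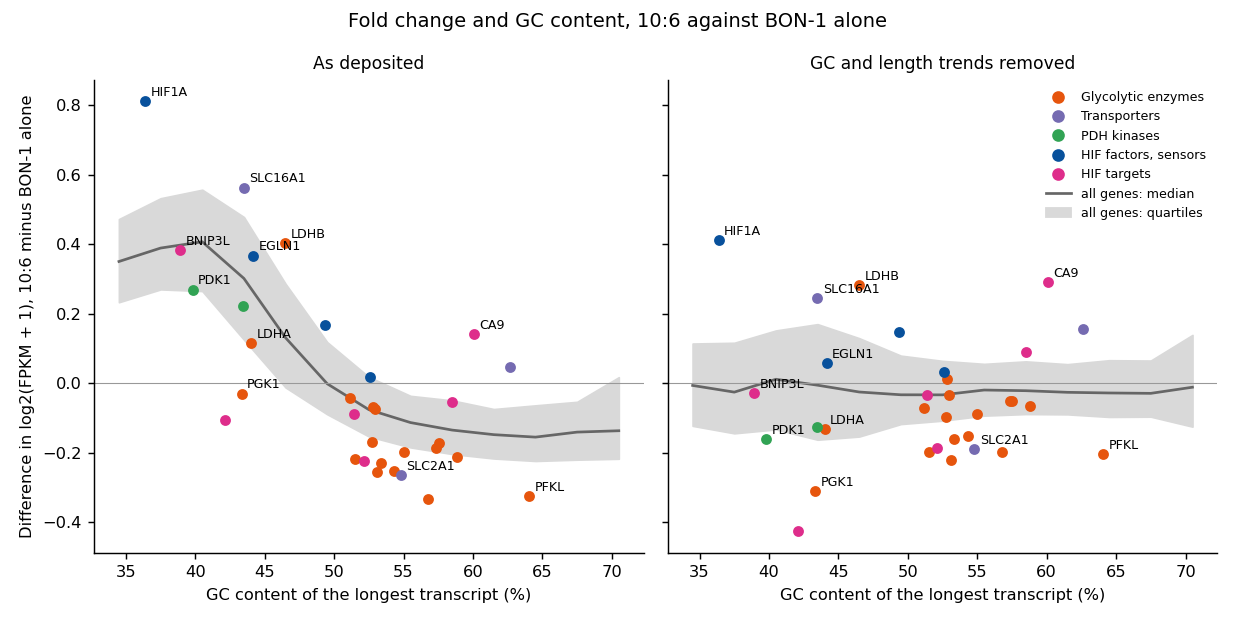
Difference in log2(FPKM + 1) at 10:6 against BON-1 alone and GC content of the longest transcript, as deposited (left) and after removal of GC and length trends (right). Coloured points are the 32 genes by role, the line is the median of all genes in steps of GC content and the band their quartiles. HIF1A lies above the band in both panels, while LDHA, PDK1 and BNIP3L move from above 0 to below it.

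The hexokinases, which phosphorylate glucose on entry, were called in 1 comparison. HK1 had 70.7, 68.8 and 68.7 FPKM in BON-1 alone, 65.3, 66.3 and 70.2 at 10:2, 63.6, 63.9 and 65.00 at 10:4 and 66.8, 66.7 and 64.1 at 10:6. HK2 had 23.8, 22.1 and 22.9 FPKM in BON-1 alone, 23.8, 23.4 and 22.01 at 10:2, 20.04, 20.5 and 22.1 at 10:4 and 22.05, 22.2 and 22.4 at 10:6. Both fell at 10:4, HK1 by 0.11 ± 0.033 (SE; limma adjusted p = 0.0158) and HK2 by 0.13 ± 0.044 (SE; limma adjusted p = 0.0318), and with trends removed HK1 was -0.04 (limma adjusted p = 0.467) and HK2 -0.11 (limma adjusted p = 0.0293). The HK2 call was lost without a filter, with only the groups compared and with the replicate block (limma adjusted p = 0.0561, 0.0646 and 0.0546). Neither passed the test at 10:6, where HK1 differed by -0.07 and HK2 by -0.04. HK1 at 10:4 and 10:6 lay below BON-1 alone without overlap, while HK1 at 10:2 and HK2 at 10:2 and 10:6 overlapped it.

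GPI, which turns glucose 6-phosphate into fructose 6-phosphate, fell at every ratio. Its levels were 119, 119 and 118 FPKM in BON-1 alone, 108, 111 and 107 at 10:2, 105, 103 and 105 at 10:4 and 99.4, 99.2 and 98.9 at 10:6. The groups did not overlap, and each step up in CAF share lay below the one before. GPI at 10:6 was 0.25 ± 0.024 (SE; limma adjusted p = 8.21e-06) lower than in BON-1 alone, and the difference with trends removed was -0.22 (limma adjusted p = 5.30e-05). At 10:4 and 10:2 it fell by 0.18 ± 0.024 (SE; limma adjusted p = 9.32e-05) and 0.13 ± 0.024 (SE; limma adjusted p = 0.00268), and both calls remained with trends removed.

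The 3 phosphofructokinase genes encode the liver (PFKL), muscle (PFKM) and platelet (PFKP) subunits of the enzyme at the committed step. PFKL had 52.4, 51.7 and 51.5 FPKM in BON-1 alone, 48.7, 47.96 and 48.8 at 10:2, 43.99, 45.6 and 46.1 at 10:4 and 41.96, 41.03 and 40.7 at 10:6. All 3 libraries at 10:6 were below every library of the other groups, and PFKL fell by 20.5% in mean FPKM against BON-1 alone, a log2 fall of 0.32 ± 0.028 (SE; limma adjusted p = 4.43e-06). With trends removed the difference at 10:6 was -0.20 (limma adjusted p = 4.23e-04), while those at 10:4 and 10:2 no longer passed the test. PFKM had 47.6, 45.6 and 46.5 FPKM in BON-1 alone, 45.4, 42.9 and 43.3 at 10:2, 39.5, 39.8 and 40.2 at 10:4 and 42.4, 39.9 and 37.5 at 10:6. PFKP had 128, 124 and 123 FPKM in BON-1 alone, 119, 119.5 and 111 at 10:2, 108, 109 and 114 at 10:4 and 112, 112 and 108 at 10:6. Both lay lower in all co-culture libraries than in BON-1 alone, by 0.22 ± 0.042 (SE; limma adjusted p = 0.00129) for PFKM and 0.17 ± 0.035 (SE; limma adjusted p = 0.00178) for PFKP at 10:6. The PFKM call at 10:6 remained with trends removed, at -0.20 (limma adjusted p = 0.00339), and that of PFKP did not, at -0.05 (limma adjusted p = 0.237).

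Aldolase splits the 6-carbon sugar. ALDOA, the main form in most cells, had 933, 932 and 928 FPKM in BON-1 alone, 830.0, 880.5 and 865 at 10:2, 878, 818 and 827 at 10:4 and 799, 774 and 771 at 10:6. ALDOC, the brain-type form, had 17.5, 18.1 and 17.6 FPKM in BON-1 alone, 16.9, 18.6 and 16.6 at 10:2, 15.8, 16.2 and 13.95 at 10:4 and 15.2, 13.9 and 12.7 at 10:6. ALDOA in every co-culture library was below all libraries of BON-1 alone, whereas ALDOC at 10:2 overlapped BON-1 alone and was lower only at 10:4 and 10:6. At 10:6 ALDOA fell by 0.25 ± 0.031 (SE; limma adjusted p = 5.50e-05) and ALDOC by 0.33 ± 0.069 (SE; limma adjusted p = 0.00207), and both calls remained with trends removed, at -0.15 and -0.20. TPI1, which interconverts the triose phosphates, had 953, 956 and 932 FPKM in BON-1 alone, 853, 887 and 892 at 10:2, 916, 856 and 840.1 at 10:4 and 850.5, 823 and 821 at 10:6. It fell by 0.19 ± 0.033 (SE; limma adjusted p = 6.77e-04) at 10:6 and was not called with trends removed, at -0.05 (limma adjusted p = 0.118).

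GAPDH, the glyceraldehyde 3-phosphate dehydrogenase widely used as a reference gene, was the most abundant member and ranked 5 among all genes in BON-1 alone. Its levels were 6534, 6427 and 6424 FPKM in BON-1 alone, 5797, 6127 and 6214 at 10:2, 6082, 5554 and 5674 at 10:4 and 5633, 5573 and 5527 at 10:6. Every co-culture library lay below the 3 of BON-1 alone, and libraries of 10:2 and 10:4 overlapped. GAPDH at 10:6 fell by 13.7% in mean FPKM, a log2 fall of 0.21 ± 0.034 (SE; limma adjusted p = 3.94e-04), and by 0.16 ± 0.034 (SE; limma adjusted p = 0.00234) at 10:4. At 10:2 the difference was -0.10 ± 0.034 (SE; limma adjusted p = 0.0562). With trends removed no GAPDH difference passed the test, and that at 10:6 was -0.07 (limma adjusted p = 0.0701).

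PGK1, which makes ATP from 1,3-bisphosphoglycerate, gave different results with and without the GC and length trends. Its mean was 211 ± 9.62 FPKM at 10:6 and 216 ± 1.63 FPKM in BON-1 alone, and the difference of -0.03 ± 0.033 (SE; limma adjusted p = 0.491) had a 95% interval of -0.10 to 0.04. With trends removed, the GC-poor PGK1 was called lower at all 3 ratios, with a difference of -0.31 (limma adjusted p = 1.65e-04) at 10:6. PGAM1, the phosphoglycerate mutase, had 147, 152 and 143 FPKM in BON-1 alone, 132, 132 and 139 at 10:2, 133, 138 and 142 at 10:4 and 141, 141 and 139 at 10:6. It fell by 0.13 ± 0.033 (SE; limma adjusted p = 0.0132) at 10:2 and 0.09 ± 0.033 (SE; limma adjusted p = 0.0396) at 10:4 and differed by -0.07 at 10:6, and no PGAM1 call remained with trends removed.

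ENO1, the enolase of most tissues, had 1419.5, 1431 and 1413 FPKM in BON-1 alone, 1300.1, 1334 and 1305 at 10:2, 1342, 1253 and 1277 at 10:4 and 1283, 1259.8 and 1252 at 10:6. ENO2, the neuron-specific enolase also used as a neuroendocrine marker, had 20.4, 18.3 and 18.1 FPKM in BON-1 alone, 17.3, 17.6 and 18.3 at 10:2, 17.7, 16.3 and 15.99 at 10:4 and 16.6, 16.7 and 15.8 at 10:6. ENO1 lay lower in all co-culture libraries than in BON-1 alone, while ENO2 at 10:2 overlapped BON-1 alone. At 10:6 ENO1 fell by 0.17 ± 0.026 (SE; limma adjusted p = 3.07e-04) and ENO2 by 0.20 ± 0.052 (SE; limma adjusted p = 0.00844); with trends removed ENO1 was still called, at -0.10, and ENO2 was not, at -0.09. PKM, the pyruvate kinase gene, had 1136, 1128 and 1124 FPKM in BON-1 alone, 1043, 1067 and 1076 at 10:2, 1032, 998 and 1023 at 10:4 and 962, 977 and 951 at 10:6. Its levels stepped down with each ratio, and the 4 groups did not overlap. PKM fell by 0.23 ± 0.022 (SE; limma adjusted p = 9.00e-06) at 10:6, and the difference with trends removed was -0.16 (limma adjusted p = 3.33e-04). The table sums reads over whole genes, so the M1 and M2 transcripts of PKM were not separated.

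The 2 lactate dehydrogenase genes were the enzymes called higher at 10:6. LDHA, the form that favours lactate production, had 290.2, 298 and 292 FPKM in BON-1 alone, 314, 295 and 303 at 10:2, 303, 318 and 301 at 10:4 and 315, 313 and 326 at 10:6. LDHB, the form that favours pyruvate, had 3.57, 2.59 and 3.37 FPKM in BON-1 alone, 4.17, 3.03 and 2.56 at 10:2, 4.67, 4.23 and 4.35 at 10:4 and 4.95, 3.61 and 5.03 at 10:6. Both were higher at 10:4 and 10:6 than in BON-1 alone with no overlap, and both overlapped it at 10:2. LDHA rose by 0.12 ± 0.031 (SE; limma adjusted p = 0.00844) and LDHB by 0.40 ± 0.14 (SE; limma adjusted p = 0.0367) at 10:6. With trends removed the sign of LDHA turned, to -0.13 (limma adjusted p = 0.00154), and LDHB was no longer called, at 0.28 (limma adjusted p = 0.181). With median-of-ratios scaling neither was called at 10:6, LDHA at 0.05 (limma adjusted p = 0.134) and LDHB at 0.35 (limma adjusted p = 0.0544), and LDHB was also lost without a filter (limma adjusted p = 0.104). LDHB rested on 52 to 109 reads per library, and its call at 10:6 was lost without BON-1 alone replicate 2 or 3 or without 10:6 replicate 1 or 3.

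Summed over the 17 enzymes, FPKM was 12020 ± 84.1 in BON-1 alone, 11246 ± 279 at 10:2, 10864 ± 401 at 10:4 and 10503 ± 114 at 10:6 (SD, n = 3 each). As a share of all FPKM in a library the sum was 2.34% ± 0.0250 in BON-1 alone, 2.23% ± 0.0460 at 10:2, 2.15% ± 0.0556 at 10:4 and 2.10% ± 0.0231 at 10:6. GAPDH alone made up 53.8% of the sum in BON-1 alone and 53.1% at 10:6, so the sum mostly follows that gene.

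The transporters moved apart. SLC2A1, the glucose carrier GLUT1, had 73.9, 74.6 and 76.3 FPKM in BON-1 alone, 69.1, 70.7 and 70.99 at 10:2, 67.5, 66.4 and 71.8 at 10:4 and 61.1, 62.2 and 63.4 at 10:6. SLC16A1, the lactate carrier MCT1, had 13.7, 12.3 and 13.5 FPKM in BON-1 alone, 18.3, 16.7 and 17.2 at 10:2, 17.1, 18.01 and 18.3 at 10:4 and 19.6, 19.2 and 20.96 at 10:6. SLC2A1 was lowest in the 3 libraries at 10:6 and SLC16A1 highest there, and neither overlapped BON-1 alone at any ratio. SLC2A1 fell by 0.26 ± 0.033 (SE; limma adjusted p = 5.97e-05) at 10:6, with a difference of -0.19 (limma adjusted p = 9.53e-04) after removal of trends. SLC16A1 rose by 0.56 ± 0.052 (SE; limma adjusted p = 7.13e-06) at 10:6, 0.41 ± 0.052 (SE; limma adjusted p = 7.50e-05) at 10:4 and 0.38 ± 0.052 (SE; limma adjusted p = 3.31e-04) at 10:2. Its differences with trends removed were 0.25 (limma adjusted p = 0.00185) at 10:6, 0.13 (limma adjusted p = 0.0568) at 10:4 and 0.16 (limma adjusted p = 0.0355) at 10:2, so the call at 10:4 was lost. SLC16A3, the lactate carrier MCT4 and a known hypoxia target, averaged 5.07 ± 0.00529 FPKM at 10:6 and 4.88 ± 0.376 FPKM in BON-1 alone, and its difference of 0.05 ± 0.072 (SE; limma adjusted p = 0.623) had a 95% interval of -0.11 to 0.20.

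The pyruvate dehydrogenase kinases switch off entry of pyruvate into mitochondrial oxidation. PDK1, itself a hypoxia target, had 1.97, 1.86 and 2.26 FPKM in BON-1 alone, 2.59, 2.38 and 2.39 at 10:2, 2.98, 2.99 and 2.77 at 10:4 and 2.46, 3.13 and 2.41 at 10:6. PDK3 had 1.47, 1.20 and 1.39 FPKM in BON-1 alone, 1.87, 1.68 and 1.44 at 10:2, 1.65, 1.83 and 1.91 at 10:4 and 1.81, 1.75 and 1.67 at 10:6. Both were higher at 10:4 and 10:6 than in BON-1 alone without overlap, PDK1 also at 10:2, at levels of 138 to 226 reads per library for PDK1 and 229 to 343 for PDK3. At 10:4 PDK1 rose by 0.37 ± 0.084 (SE; limma adjusted p = 0.0039) and PDK3 by 0.25 ± 0.084 (SE; limma adjusted p = 0.0287), and at 10:6 by 0.27 ± 0.084 (SE; limma adjusted p = 0.0198) and 0.22 ± 0.084 (SE; limma adjusted p = 0.0453). Every one of these rises turned sign with trends removed, to -0.16 for PDK1 and -0.13 for PDK3 at 10:6, neither of which was called. PDK1 at 10:6 and PDK3 at both ratios were also lost with only the groups compared.

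**Figure D3:**
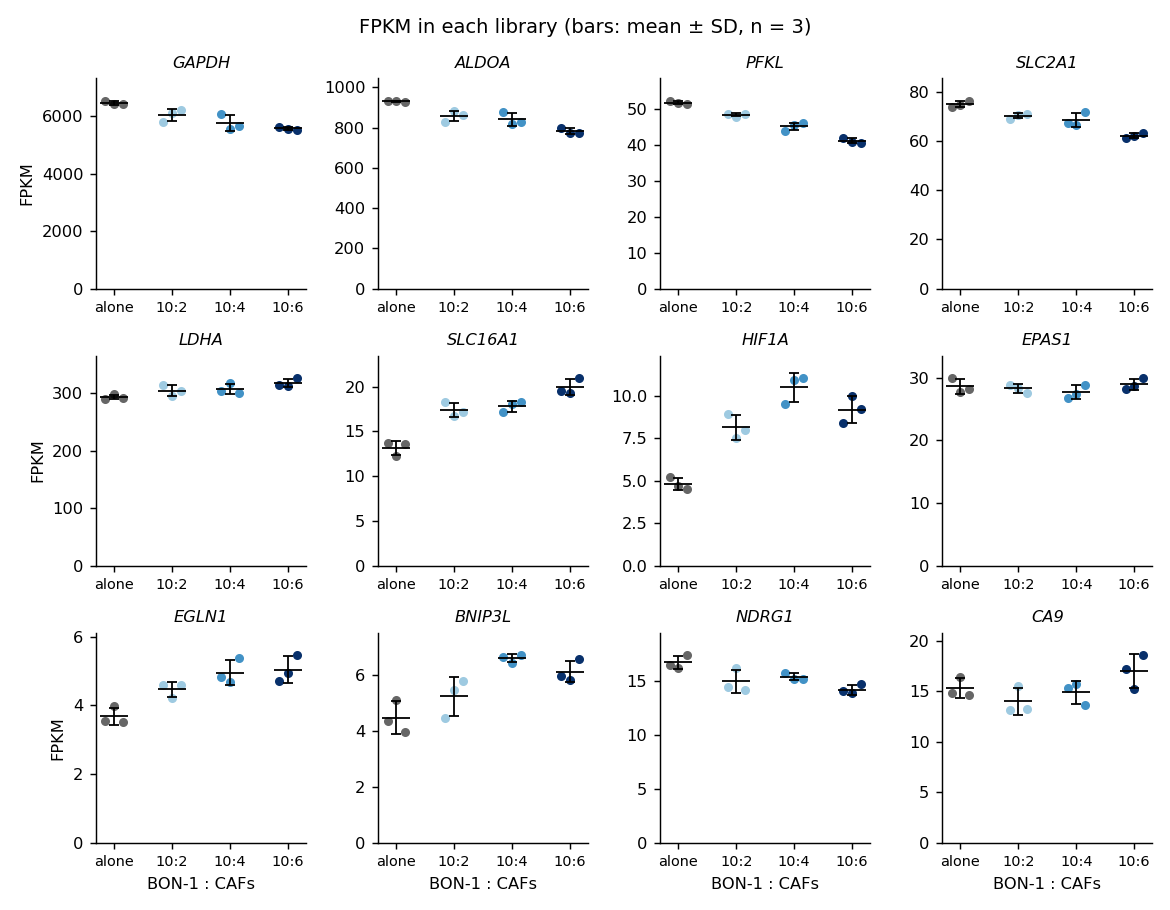
FPKM of 12 of the genes in every library, with the mean and SD of each group (n = 3). GAPDH, ALDOA, PFKL and SLC2A1 are lowest at 10:6, the HIF1A mean is highest at 10:4, and EPAS1 stays between 26.7 and 29.95 FPKM in all 12 libraries.

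HIF1A, the oxygen-regulated subunit of hypoxia-inducible factor 1, lies on chromosome 14 (GRCh38.p14, 61695513 to 61748258, plus strand). It had 5.22, 4.68 and 4.52 FPKM in BON-1 alone, 8.95, 7.51 and 8.01 at 10:2, 9.55, 10.9 and 11.1 at 10:4 and 8.40, 9.98 and 9.21 at 10:6, from 237 to 621 reads per library. All 9 co-culture libraries were above the 3 of BON-1 alone, and the libraries at 10:4 were above those at 10:2. HIF1A rose by 0.66 ± 0.080 (SE; limma adjusted p = 1.50e-04) at 10:2, 0.99 ± 0.080 (SE; limma adjusted p = 2.69e-06) at 10:4 and 0.81 ± 0.080 (SE; limma adjusted p = 1.13e-05) at 10:6, and these calls held under every alternative run. With trends removed the differences shrank to 0.36 (limma adjusted p = 0.00434), 0.52 (limma adjusted p = 1.81e-04) and 0.41 (limma adjusted p = 8.17e-04). At 10:6, the 939 genes with a GC content of 36% to 39%, among which HIF1A falls, had a median difference of 0.39, with quartiles of 0.27 and 0.53.

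EPAS1, the alternative subunit HIF-2α, had 29.9, 27.6 and 28.3 FPKM in BON-1 alone, 28.9, 28.4 and 27.6 at 10:2, 26.7, 27.4 and 28.9 at 10:4 and 28.2, 28.7 and 29.95 at 10:6. The groups overlapped throughout, and the difference at 10:6 of 0.02 ± 0.042 (SE; limma adjusted p = 0.765) had a 95% interval of -0.07 to 0.11. In FPKM, EPAS1 was thus the more abundant of these 2 subunits in every library.

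Of the oxygen sensors, EGLN1 is the main hydroxylase of HIF subunits in normal oxygen and EGLN3 is induced by HIF. EGLN1 had 3.56, 3.97 and 3.51 FPKM in BON-1 alone, 4.60, 4.22 and 4.59 at 10:2, 4.82, 4.67 and 5.37 at 10:4 and 4.70, 4.95 and 5.47 at 10:6. EGLN3 had 6.31, 7.44 and 6.996 FPKM in BON-1 alone, 6.65, 6.74 and 8.89 at 10:2, 7.96, 8.04 and 8.79 at 10:4 and 8.10, 7.57 and 7.95 at 10:6. All co-culture libraries had more EGLN1 than BON-1 alone, and EGLN3 at 10:2 overlapped BON-1 alone. EGLN1 rose by 0.23 ± 0.069 (SE; limma adjusted p = 0.0303) at 10:2, 0.35 ± 0.069 (SE; limma adjusted p = 0.00167) at 10:4 and 0.37 ± 0.069 (SE; limma adjusted p = 0.00104) at 10:6, none of which was called with trends removed (0.06 at 10:6). EGLN3 did not pass the test, at 0.23 ± 0.091 (SE; limma adjusted p = 0.0603) at 10:4 and 0.17 ± 0.091 (SE; limma adjusted p = 0.155) at 10:6. The processed copy EGLN1P1 held reads equal to 11.7% to 17.3% of those of EGLN1 at 10:6 and to 23.3% to 24.6% in BON-1 alone, so the split of reads between the 2 rows, and with it the EGLN1 change, is uncertain.

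The 6 targets showed no common direction. BNIP3L, a mitophagy receptor, had 4.36, 5.12 and 3.98 FPKM in BON-1 alone, 4.47, 5.47 and 5.81 at 10:2, 6.65, 6.46 and 6.73 at 10:4 and 5.98, 5.85 and 6.59 at 10:6. NDRG1, a stress-induced gene, had 16.6, 16.3 and 17.4 FPKM in BON-1 alone, 14.5, 16.2 and 14.2 at 10:2, 15.8, 15.2 and 15.2 at 10:4 and 14.1, 13.9 and 14.7 at 10:6. CA9, the membrane carbonic anhydrase used as a tissue marker of hypoxia, had 14.8, 16.4 and 14.6 FPKM in BON-1 alone, 13.2, 15.5 and 13.2 at 10:2, 15.3, 15.7 and 13.6 at 10:4 and 17.2, 15.2 and 18.6 at 10:6. BNIP3L at 10:4 and 10:6 lay above BON-1 alone, NDRG1 lay below it in all co-cultures, and CA9 overlapped it at every ratio. BNIP3L rose by 0.48 ± 0.090 (SE; limma adjusted p = 0.0012) at 10:4 and 0.38 ± 0.090 (SE; limma adjusted p = 0.00428) at 10:6, and both calls were lost with trends removed, at 0.03 (limma adjusted p = 0.843) at 10:4 and -0.03 (limma adjusted p = 0.857) at 10:6. NDRG1 fell by 0.22 ± 0.050 (SE; limma adjusted p = 0.00345) at 10:6 and the call remained with trends removed, at -0.19 (limma adjusted p = 0.0168). CA9 at 10:6 differed by 0.14 ± 0.084 (SE; limma adjusted p = 0.189) with a 95% interval of -0.04 to 0.33, and passed the test only with trends removed, at 0.29 (limma adjusted p = 0.018).

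The other targets did not pass the test against BON-1 alone. BNIP3, the partner of BNIP3L in mitophagy, averaged 44.8 ± 2.08 FPKM at 10:6 and 47.6 ± 2.31 FPKM in BON-1 alone, and its many processed copies held reads equal to 5.80% to 9.19% of its own. ADM, the vasodilator adrenomedullin, averaged 21.6 ± 0.584 FPKM at 10:6 and 22.4 ± 1.04 FPKM in BON-1 alone, a difference of -0.05 ± 0.040 (SE; limma adjusted p = 0.288). ANKRD37, an ankyrin-repeat gene induced by HIF-1, averaged 2.001 ± 0.258 FPKM at 10:6 and 2.22 ± 0.101 FPKM in BON-1 alone on 14 to 48 reads per library, with a 95% interval at 10:6 of -0.52 to 0.31. With trends removed ANKRD37 was called lower at 10:4, at -0.76 (limma adjusted p = 0.0134). Summed over the 6 targets, FPKM was 108.8 ± 2.73 in BON-1 alone, 103.6 ± 1.95 at 10:2, 109.0 ± 1.35 at 10:4 and 105.7 ± 3.42 at 10:6.

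Shares within gene families do not depend on the scaling between libraries, but they carry the GC trend where family members differ in GC content. HIF1A has 36.4% GC and EPAS1 52.6%, SLC16A1 43.5% and SLC16A3 62.7%. With trends removed, the differences at 10:6 were 0.41 for HIF1A and 0.03 for EPAS1, and 0.25 for SLC16A1 and 0.16 for SLC16A3. The difference within each of these pairs was not tested with trends removed. HIF1A made up 14.9%, 14.5% and 13.8% in BON-1 alone, 23.6%, 20.9% and 22.5% at 10:2, 26.3%, 28.6% and 27.7% at 10:4 and 22.9%, 25.8% and 23.5% at 10:6 of the summed FPKM of HIF1A and EPAS1. The share was 9.71 percentage points higher at 10:6 than in BON-1 alone. SLC16A1 made up 75.4%, 70.3% and 73.1% in BON-1 alone, 80.1%, 75.6% and 79.2% at 10:2, 76.6%, 79.2% and 77.3% at 10:4 and 79.4%, 79.2% and 80.6% at 10:6 of the sum with SLC16A3, 6.79 points higher at 10:6. PFKL made up 22.9%, 23.4% and 23.3% in BON-1 alone, 22.9%, 22.8% and 24.03% at 10:2, 22.98%, 23.5% and 23.1% at 10:4 and 21.3%, 21.2% and 21.8% at 10:6 of the 3 phosphofructokinase genes, a difference of -1.73 points at 10:6. For all 3, and for the shares of PFKP and EGLN1, libraries at 10:6 and in BON-1 alone did not overlap, and the exact two-sided permutation test gave p = 0.1, the smallest that 3 against 3 libraries allows. The adjusted p cannot be lower, so none of the 11 shares compared could pass the threshold. The shares of HK2, PFKM, ALDOC, ENO2, LDHB and PDK1 gave exact permutation p from 0.3 to 1.0. LDHB stayed near 1% of lactate dehydrogenase RNA, at 1.21%, 0.861% and 1.14% in BON-1 alone, 1.31%, 1.02% and 0.837% at 10:2, 1.51%, 1.31% and 1.42% at 10:4 and 1.55%, 1.14% and 1.52% at 10:6.

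**Figure D4:**
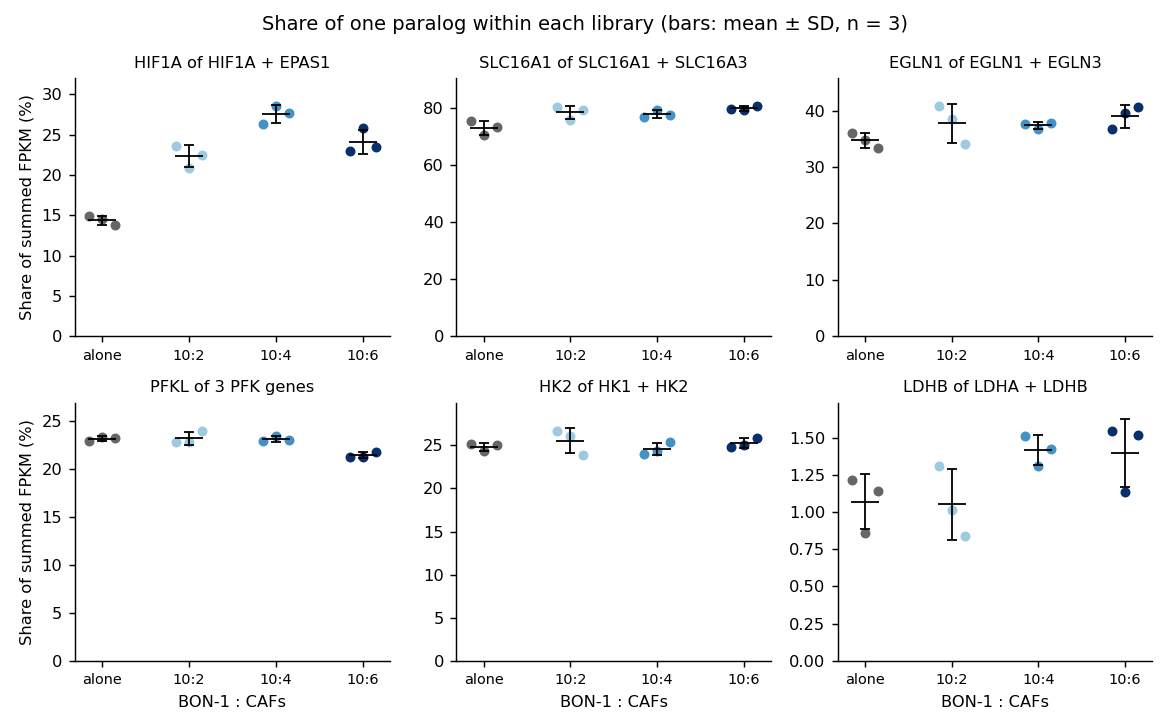
Share of 1 gene in the summed FPKM of its family in every library, with the mean and SD of each group (n = 3). The share of HIF1A lies at 13.8% to 14.9% in BON-1 alone and at 20.9% or more in all 9 co-culture libraries, while HK2 overlaps across groups.

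Genes around the members gave the wider picture. Of 20 other glycolysis genes, 10 were tested, and 4 rose and 2 fell at 10:6, where 29.7% of all genes were called higher and 18.3% lower; the others, among them HK3 and SLC2A3, stayed at or below 0.840 FPKM. GPD2, the mitochondrial glycerol 3-phosphate dehydrogenase that shuttles electrons from glycolysis, had 12.2 ± 0.278 FPKM at 10:6 and 6.02 ± 0.231 FPKM in BON-1 alone, a rise of 0.91 ± 0.056 (SE; limma adjusted p = 3.61e-07) that was 0.47 (limma adjusted p = 1.52e-05) with trends removed. TIGAR, which lowers fructose 2,6-bisphosphate, rose by 0.37 ± 0.083 (SE; limma adjusted p = 0.00314), and PFKFB4, of the family that makes that activator, differed by -0.23 ± 0.058 (SE; limma adjusted p = 0.00572). Neither was called with trends removed, and GPD2 was the 1 gene of this list that was.

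Of 14 genes of pyruvate entry into mitochondria, 13 were tested, and 4 rose and 3 fell at 10:6, shares near those of all genes (29.7% and 18.3%). PDK4, a further pyruvate dehydrogenase kinase, rose by 0.53 ± 0.069 (SE; limma adjusted p = 8.47e-05), DLD by 0.55 ± 0.076 (SE; limma adjusted p = 1.23e-04) and PDHX by 0.40 ± 0.059 (SE; limma adjusted p = 1.95e-04), the last 2 being components of the pyruvate dehydrogenase complex. With trends removed none of these 3 rises was called, at 0.12 (limma adjusted p = 0.168) for PDK4, 0.14 (limma adjusted p = 0.176) for DLD and 0.11 (limma adjusted p = 0.138) for PDHX. In that fit 6 of the 13 fell, against 14.0% of all genes, among them the pyruvate carriers MPC1 and MPC2 and the complex subunits PDHA1 and PDHB. Of 13 tested genes of the wider hypoxia machinery, 2 rose and 3 fell, again against 29.7% and 18.3% of all genes. CUL2, the scaffold of the ligase that degrades HIF subunits, rose by 0.65 ± 0.068 (SE; limma adjusted p = 1.75e-05), whereas TCEB2 (elongin B of the same ligase) differed by -0.17 ± 0.036 (SE; limma adjusted p = 0.00292) and ARNT2, a partner subunit, by -0.21 ± 0.047 (SE; limma adjusted p = 0.00351). CUL2 and ARNT2 remained called with trends removed, and TCEB2 did not.

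Before trends were removed, the share of other HIF targets called higher lay above that of all genes at each ratio against BON-1 alone. All genes, too, were called higher more than lower at each ratio. Of 26 listed, 22 were tested, and at 10:6 against BON-1 alone 14 rose, with a median difference of 0.26 against 0.02 over all genes, of which 29.7% were called higher. At 10:4, 10 rose (27.3% of all genes), and at 10:2, 9 rose (19.9% of all genes). TFRC, the transferrin receptor, had 42.3 ± 0.897 FPKM at 10:6 and 21.6 ± 0.642 FPKM in BON-1 alone, a rise of 0.94 ± 0.041 (SE; limma adjusted p = 4.04e-08). P4HA1, a collagen prolyl hydroxylase subunit, had 13.9 ± 0.585 FPKM at 10:6 and 8.33 ± 0.0859 FPKM in BON-1 alone, a rise of 0.68 ± 0.072 (SE; limma adjusted p = 1.94e-05). BHLHE40, a transcriptional repressor, rose by 0.40 ± 0.046 (SE; limma adjusted p = 2.90e-05). The list had a median GC content of 45.5%, below the 49.8% of all genes, and with trends removed 7 rose at 10:6 (11.5% of all genes), with a median of 0.11 against -0.02. In that fit 6 rose and 2 fell at 10:4 (10.6% and 12.5% of all genes), and 2 of the 22 rose at 10:2, near the 6.07% of all genes. TFRC, P4HA1 and BHLHE40 were among the 7, at 0.53 (limma adjusted p = 8.29e-07), 0.30 (limma adjusted p = 0.00313) and 0.45 (limma adjusted p = 1.84e-05). VEGFA, the angiogenic factor often read as a hypoxia marker, had 23.7 ± 0.422 FPKM at 10:6 and 23.7 ± 1.38 FPKM in BON-1 alone and was not called in either fit.

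**Figure D5:**
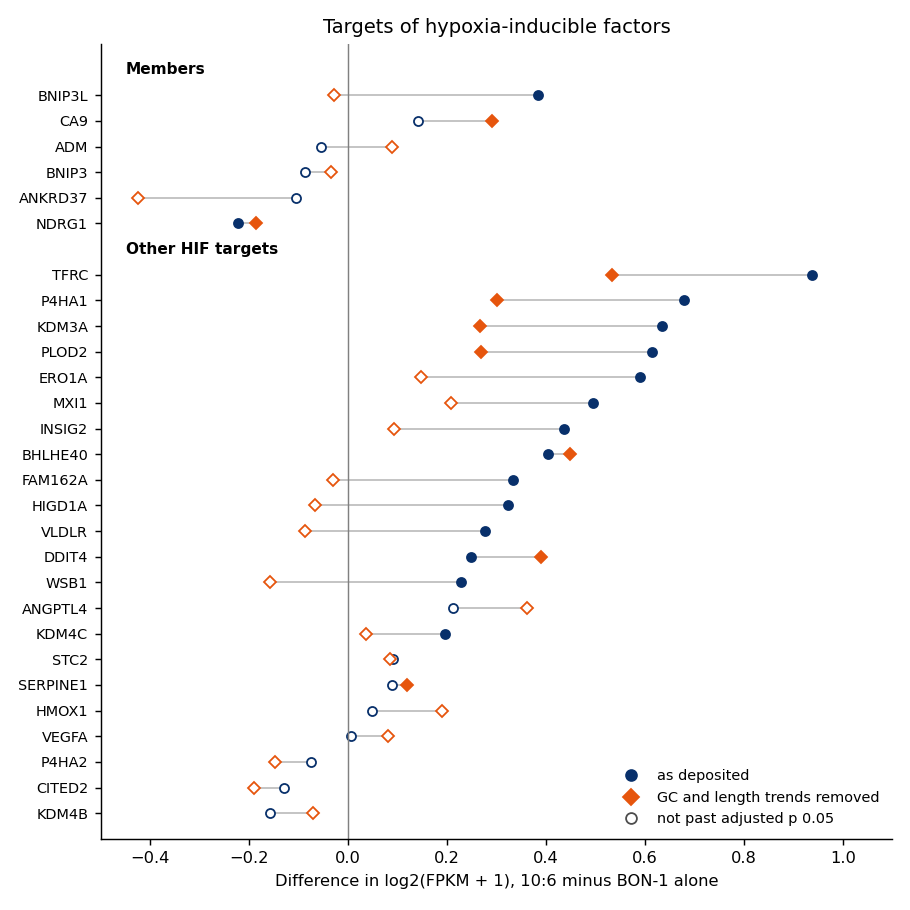
Difference in log2(FPKM + 1) at 10:6 against BON-1 alone for the 6 member targets and 22 other targets of hypoxia-inducible factors, as deposited (circles) and with GC and length trends removed (diamonds). Filled symbols passed the limma test. Removing the trends shortens most of the rises, and TFRC stays farthest to the right.

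Between the co-cultures, the calls lay in the comparison of 10:6 with 10:2. GPI, PFKL, ALDOA, ALDOC, PKM and SLC2A1 were lower at 10:6 than at 10:2, and no member was called higher, against 2.45% of all genes lower and 4.52% higher. PFKL differed by -0.23 ± 0.028 (SE; limma adjusted p = 0.00163), PKM by -0.14 ± 0.022 (SE; limma adjusted p = 0.00586) and SLC2A1 by -0.17 ± 0.033 (SE; limma adjusted p = 0.0139). The count was also 6 with trends removed (1.71% of all genes higher, 1.98% lower), and the same 6 genes were called. ALDOA lost its call when the replicate block was added to that fit (limma adjusted p = 0.0850). For 10:6 against 10:2, rho of GC content with the log2 difference was -0.48 over 12398 genes. Over the 17 enzymes it was -0.67 before removal and still -0.375 after. Higher at 10:6 than at 10:2 were 3 members at an unadjusted p under 0.05 and 1, SLC16A1, with limma-voom. Over all 13312 genes limma-voom called 795 higher and 792 lower here. The shares of all genes at an unadjusted p under 0.05 are not given, here or for the comparisons that follow. Between 10:4 and 10:2 limma-voom called 4 members, and 829 genes higher and 244 lower over the whole table. No member passed the main test there (2.47% of genes higher, 0.413% lower), with 4 higher and 7 lower at an unadjusted p under 0.05. HIF1A was nearest, at 0.33 ± 0.080 (SE; limma adjusted p = 0.0504). Between 10:6 and 10:4 no member passed either (0.0977% higher, 0.233% lower), with 1 higher and 7 lower at an unadjusted p under 0.05 and 4, all lower, called by limma-voom. Over all genes limma-voom called 65 higher and 253 lower there. SLC2A1 was called lower there with trends removed, where 0.540% of all genes were, at -0.16 (limma adjusted p = 0.0417).

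Several calls against BON-1 alone were lost when 1 library was left out, some of them whichever of several libraries it was. At 10:6, PDK1 was lost without BON-1 alone replicate 1 or 2 or without 10:6 replicate 2, and PDK3 without any 1 library of BON-1 alone or 10:6, without 10:2 replicate 2, or without 10:4 replicate 2 or 3. At 10:4, HK1 was lost without BON-1 alone replicate 1, HK2 without BON-1 alone replicate 1 or 3 or 10:4 replicate 1 or 2, and ENO2 without BON-1 alone replicate 1 or 10:4 replicate 2 or 3. ALDOC at 10:4 was lost without any 1 library of BON-1 alone or 10:4 replicate 3. PGAM1 at 10:4 was lost without BON-1 alone replicate 1 or 2, 10:4 replicate 1 or 2, or 10:6 replicate 2 or 3. LDHB at 10:4 was lost on leaving out BON-1 alone replicate 2 or 3, 10:2 replicate 2, any 10:4 library, or 10:6 replicate 1 or 3, and PDK3 on leaving out BON-1 alone replicate 2 or 3 or 10:4 replicate 2 or 3.

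At 10:2 against BON-1 alone the count of members called was 7 without BON-1 alone replicate 1, without BON-1 alone replicate 2 or without 10:2 replicate 1, against 12 with all libraries. Calls over all 13312 genes fell too, to 2176, 2126 and 2148 higher and 542, 462 and 610 lower, against 2655 and 993. PFKL was lost without any 1 library of BON-1 alone or 10:2, TPI1 without BON-1 alone replicate 1 or 2 or 10:2 replicate 1, ALDOA without 10:2 replicate 1, and PGAM1 without BON-1 alone replicate 2. EGLN1 was lost without BON-1 alone replicate 1 or 3 or 10:2 replicate 1 or 3. PFKP and NDRG1 were lost without any BON-1 alone library, 10:2 replicate 1 or 3, 10:4 replicate 2, or 10:6 replicate 1 or 2, PFKP also without 10:6 replicate 3 and NDRG1 also without 10:4 replicate 3. Of the differences between 10:6 and 10:2, the count was 2 without 10:2 replicate 2, 3 without 10:6 replicate 3 and 4 without 10:6 replicate 2. Over all genes these fits called 174, 148 and 218 higher and 78, 81 and 120 lower, against 602 and 326 with all libraries. PFKL and PKM kept their calls in every case, and SLC2A1 lost its call only without 10:2 replicate 2.

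Some members share exons with a gene on the opposite strand, and whether counting used strand is not given in the sources used here. These include TPI1 with SPSB2, PFKM with SENP1, SLC16A3 with CSNK1D, BNIP3L with PNMA2, ANKRD37 with UFSP2, and CA9 with ARHGEF39. ARHGEF39 had 10.3 to 13.0 FPKM, close to the level of CA9, so the CA9 values are uncertain to that extent. CSNK1D had 31.6 to 39.1 FPKM, above the level of SLC16A3, and UFSP2 had 2.61 to 5.31 FPKM, near or above that of ANKRD37. The values of SLC16A3 and ANKRD37, and the share of SLC16A1 with SLC16A3, are therefore uncertain as well. GAPDH has 64 processed copies in the table, which together held reads equal to 0.0572% of those of GAPDH.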

How the data were processed

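Poly(A) RNA of 12 BON-1 libraries was measured as FPKM, deposited by the authors in 1 table of 54261 genes. Per the submitters' processing notes, HISAT2, featureCounts and build hg38 were used; versions, annotation and strand setting are not given there or in the labels. Of 267349 FPKM values above 0, 99.97% were whole numbers of reads within 1e-05 read once gene length was solved, which gave the depths.

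The main test was limma (version 3.58.1, R 4.3.3) on log2(FPKM + 1), with a mean for each group over all 12 libraries, a variance trend and Benjamini-Hochberg adjustment over the 13312 genes with at least 1 FPKM in at least 3 libraries. A difference on this scale understates the change of genes with low FPKM. GC and length trends were removed as natural splines with 5 degrees of freedom over 12398 genes (93.1% of those tested). Family shares were compared by an exact two-sided permutation test, and other steps used Python 3.11.15. The main fit alone was tried on simulated data with known changes and no GC or length trend. Its outcome is not given here, and no result rests on it. The fit with trends removed and limma-voom were not tested on simulated data. Replicates of a group differed by more than sampling noise, with a chi-square per degree of freedom of 1.66 to 4.07.

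The members and lists were chosen with earlier results of these data known. All 32 members are named by role, with values of each library for those called in any comparison and for HIF1A, EPAS1, CA9 and the sensors; of each wider list the counts and the 3 genes with the smallest p at 10:6 are given. MPC1, MPC2, PDHA1, PDHB and VEGFA were named after their values were seen. Alternatives were another pseudocount, no filter, median-of-ratios scaling, only the groups compared, a replicate block, trends removed, limma-voom on the recovered reads, and each library left out.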

Additional observations from a re-analysis of the deposited data

How the results depend on the processing

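Of 61 calls on members over 6 comparisons, 61 were kept with a pseudocount of 0.1 and 61 with limma-voom, 57 with median-of-ratios scaling, 54 with the replicate block, 51 with only the groups compared, 47 without a filter and 24 with GC and length trends removed (23 with the block as well). Leaving out 1 library kept 49 to 58. Members called at 10:2 against BON-1 alone numbered 12, but 7 without a filter and 5 with trends removed, with or without the block. Without a filter, 2223 of 30723 genes were called higher and 566 lower at 10:2. At 10:4 the members called numbered 22, but 7 with trends removed, with or without the block. For 10:4 against 10:2 the count of 0 became 1 with median-of-ratios scaling and 4 with limma-voom. Over all genes these runs called 328 higher and 97 lower, and 829 and 244, against 329 and 55 in the main fit. For 10:6 against 10:2 the count of 6 became 3 with only the groups compared and 11 with limma-voom. Over all genes these runs called 177 higher and 86 lower, and 795 and 792, against 602 and 326 in the main fit. For 10:6 against 10:4 the count of 0 became 1 with trends removed, with or without the block, and 4 with limma-voom. Over all genes limma-voom called 65 higher and 253 lower there, against 13 and 31 in the main fit. Leaving out 1 library gave 7 to 13 at 10:2, 17 to 23 at 10:4 and 18 to 22 at 10:6 against BON-1 alone, 0 to 1 for 10:4 against 10:2, 2 to 7 for 10:6 against 10:2 and 0 to 0 for 10:6 against 10:4. The 17 came without BON-1 alone replicate 1, where 3345 of all genes were higher and 1829 lower, against 3638 and 2408. The 18 came without BON-1 alone replicate 2, with 3530 genes higher and 1917 lower, against 3953 and 2441. The cause of these changes was not tested.

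With trends removed, alone or with the block, the sign turned for TPI1 (0.00269) and PGAM1 (0.00347), PDK1 (-0.0742) and PDK3 (-0.0684) at 10:4, and for PGAM1 (0.0136), LDHA (-0.13), PDK1 (-0.16), PDK3 (-0.13), BNIP3L (-0.0283) and ADM (0.0891) at 10:6. At 10:6 median-of-ratios scaling turned SLC16A3 (-0.00504) and EPAS1 (-0.0430), and limma-voom turned EPAS1 (-0.0240). The PFKM share differed by 0.0192 points when counted in reads. Leaving out 1 library gave -0.0626 to 0.00261 for PGK1, -0.00481 to 0.0860 for SLC16A3 and -0.00668 to 0.0486 for EPAS1 at 10:6, and share differences of -0.431 to 0.279 points for PFKM, -0.0630 to 0.0124 for ENO2 and -1.69 to 1.55 for PDK1.

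Replicate numbers did not pair the libraries: deviations from the group means correlated at -0.04 to 0.05 over 18 same-numbered pairs. With the replicate block the members called were 3 higher and 7 lower at 10:2, 8 and 13 at 10:4 and 7 and 13 at 10:6. Over all 13312 genes the block gave 2490 and 750 at 10:2, 3543 and 2196 at 10:4 and 3821 and 2283 at 10:6. Depth limits ANKRD37 and LDHB most.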
